A study of Homo sapiens with 12 samples.

Results

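MAPK feedback genes are genes that the RAS and ERK kinase cascade switches on and whose products, for the most part, hold that cascade back. Growth factor receptors activate RAS, which sets off the RAF, MEK and ERK kinases in turn. ERK then drives transcription of phosphatases that switch it off again, of Sprouty and SPRED proteins that block the steps between receptor and RAF, and of ETS transcription factors that carry the signal on. Levels of these transcripts are widely read as a gauge of ERK activity in carcinoma cells, and the EGF receptor that feeds the cascade is often overexpressed in esophageal squamous carcinoma. Here 10 such genes were taken by their symbols from a table of 58884 genes, namely DUSP4, DUSP5, DUSP6, SPRY2, SPRY4, SPRED1, SPRED2, ETV4, ETV5 and IER3. Each had 1 row, and all 10 passed the filter on low values that left 16950 genes for testing.

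RNA was sequenced from KYSE70, a cell line of human esophageal squamous cell carcinoma, in 12 libraries. The groups were 4 libraries from cells given 10 µM pyrimethamine for 72 h (PYR), 4 from cells given 20 nM mitoxantrone for 72 h (MIT) and 4 from untreated cells (Control), all in RPMI1640 medium with fetal bovine serum. Pyrimethamine is an antifolate used against malaria and toxoplasmosis, while mitoxantrone, used against cancers, slips between DNA bases and traps topoisomerase II on DNA. In the title of the series both are presented as inhibitors of NRF2, a transcription factor of the antioxidant response. No label gives a vehicle for the untreated cells or says that replicates were separate cultures, so p-values measure only a spread between samples that may be technical, in 1 cell line.

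Values are the authors' normalized counts, read counts divided by 1 factor per library. Depth was 47.5 M to 94.5 M reads in genes per library. Most of 8 squamous markers were high in every library, with KRT5, a basal keratin, at a mean of 270042 normalized counts in PYR, 216959 in MIT and 219927 in Control, while KRT14, its usual partner, averaged only 135 in PYR, 154 in MIT and 136 in Control, and KRT17 797 in PYR, 531 in MIT and 829.6 in Control. Of these markers 2 were called higher and 3 lower in PYR than in Control, and 3 higher and 3 lower in MIT. The squamous lineage factor SOX2 had log2 changes of -0.49 in PYR and 0.98 in MIT, TP63 of -0.38 and 0.41, the keratin KRT6A of 0.56 and -0.35, and the adhesion protein CDH1 was called in MIT, at -0.99. Summed over the 8 markers, to which KRT5 gave the most, the level ran from 420860 to 443869 in PYR, from 333756 to 356234 in MIT and from 339252 to 364248 in Control. Of 7 fibroblast markers, DCN, LUM, PDGFRA and COL1A2 averaged under 2 normalized counts in each group, and COL1A2 was at 0 in every MIT and Control library. The list's sum, carried by COL1A1 and THY1, was 18154 to 19553 in PYR, 6889 to 8322 in MIT and 20733 to 21807 in Control. Mitochondrial genes took 6.83% to 8.33% of reads in PYR, 3.23% to 3.89% in MIT and 6.16% to 6.69% in Control, so this share also separated the groups. The part of these differences in the values that follow was not tested. In bulk RNA, fewer cells of one kind and less RNA per cell cannot be told apart.

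The promoters of the Sprouty pair are shown because SPRY2 was called lower and SPRY4 higher under pyrimethamine. The SPRY4 call was lost in 7 of 25 alternative fits. RefSeq promoter sequences (GRCh38.p14) were matched for 5 of the 10 genes, DUSP6, SPRY2, SPRY4, SPRED1 and SPRED2, in 8 windows of 250 bases before a transcription start. The 2 windows below run 5′ to 3′ along the minus strand, chr13:80341127-80341376 for SPRY2 and chr5:142324248-142324497 for SPRY4, and neither overlapped an exon of a protein-coding transcript in GENCODE release 29. The SPRY4 window lies inside the annotated span of its gene, downstream of other annotated starts. Capitals mark the letters that matched a searched motif.
SPRY2: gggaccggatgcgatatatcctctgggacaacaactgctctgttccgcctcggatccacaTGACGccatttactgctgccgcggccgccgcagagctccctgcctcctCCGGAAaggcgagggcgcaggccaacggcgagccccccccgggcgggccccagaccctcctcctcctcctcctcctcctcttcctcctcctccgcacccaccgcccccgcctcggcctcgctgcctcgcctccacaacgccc
SPRY4: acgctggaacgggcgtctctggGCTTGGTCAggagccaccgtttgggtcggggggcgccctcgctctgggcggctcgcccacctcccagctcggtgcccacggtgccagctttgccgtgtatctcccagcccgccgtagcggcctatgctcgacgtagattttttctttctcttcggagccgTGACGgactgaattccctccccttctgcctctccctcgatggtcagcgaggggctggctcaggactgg
Both strands were searched for the ETS core CCGGAA, its looser form GGAAGT, the cyclic AMP response element TGACGTCA and its part TGACG, the AP-1 motif TGANTCA, the CArG box and the antioxidant response element TGACNNNGC. Positions are counted back from the start and give the first base as printed. The SPRY2 window held TGACG at position -190 and CCGGAA at position -142, and the SPRY4 window held TGACG at position -68 and an antioxidant response element match on the other strand, GCTTGGTCA, at position -228. A further SPRY2 window held the looser ETS form at position -6, and another held no searched motif. Both lie inside the SPRY2 gene span. No searched motif matched in the windows of DUSP6, SPRED1 and SPRED2. The DUSP6 and SPRED1 windows lie inside their gene spans and overlap exons of protein-coding transcripts. Bases before the first annotated starts of DUSP6 and SPRED1 were thus not searched. For SPRED2, the window at the gene's start overlaps such an exon and the other window lies inside the gene. Over all 35116 promoter windows of the same length, CCGGAA was present in 14.5%, GGAAGT in 19.5%, TGACGTCA in 1.65%, TGACG in 21.2%, TGANTCA in 6.57%, the CArG box in 1.16% and TGACNNNGC in 10.9%. These matches describe letters and say nothing of which factor binds there.

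Under pyrimethamine the 10 genes mostly stood higher than in untreated cells. The 3 phosphatases, SPRY4, both SPRED genes and both ETS factors were higher, while SPRY2 and IER3 were lower. Calls rest on limma, a linear model fitted to log2(value + 1) over all 16950 genes, at a Benjamini-Hochberg adjusted p under 0.05. By that test 8 of the 10 were higher and 2 lower, against a background of 53.3% of all tested genes called in this comparison, 26.4% higher and 26.9% lower. The median log2 change was 0.32 over the 10 genes and 0.0018 over all tested genes. None of the 10 had PYR and Control libraries that overlapped, which held for 51.1% of tested genes, 25.8% with PYR higher and 25.4% with PYR lower.

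Under mitoxantrone the set split. The 3 phosphatases were lower and ETV4 was higher than in untreated cells, and the Sprouty and SPRED genes, ETV5 and IER3 did not pass the test. Those are 1 higher, 3 lower and 6 not called, against 69.3% of all tested genes called, 33.5% higher and 35.8% lower. The median log2 change was -0.0094 over the 10 genes and -0.0080 over all tested genes. Rescaling libraries to the same total put the median of the 10 at -0.11, against -0.06 with upper-quartile rescaling and -0.06 after quantile normalization. With any 1 MIT or Control library left out it moved by over 1.5 times, between -0.03 without MIT replicate 1 and 0.0096 without Control replicate 3, and it was also above 0 without MIT replicate 3. MIT and Control libraries did not overlap for 5 of the 10, DUSP4, DUSP5, DUSP6, ETV4 and IER3, against 60.9% of tested genes, 29.9% with MIT higher and 31% with MIT lower. Both drug groups are set against the same 4 Control libraries, so the drugs were also compared directly. MIT libraries stood higher than PYR libraries for SPRY2, ETV4 and IER3 and lower for 6 genes, with only SPRY4 not called, against 76.4% of all tested genes called, 36.9% higher and 39.5% lower. The same 9 genes had MIT and PYR libraries that did not overlap, against 68.8% of tested genes, 33.3% with MIT higher and 35.5% with MIT lower.

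**Figure D1:**
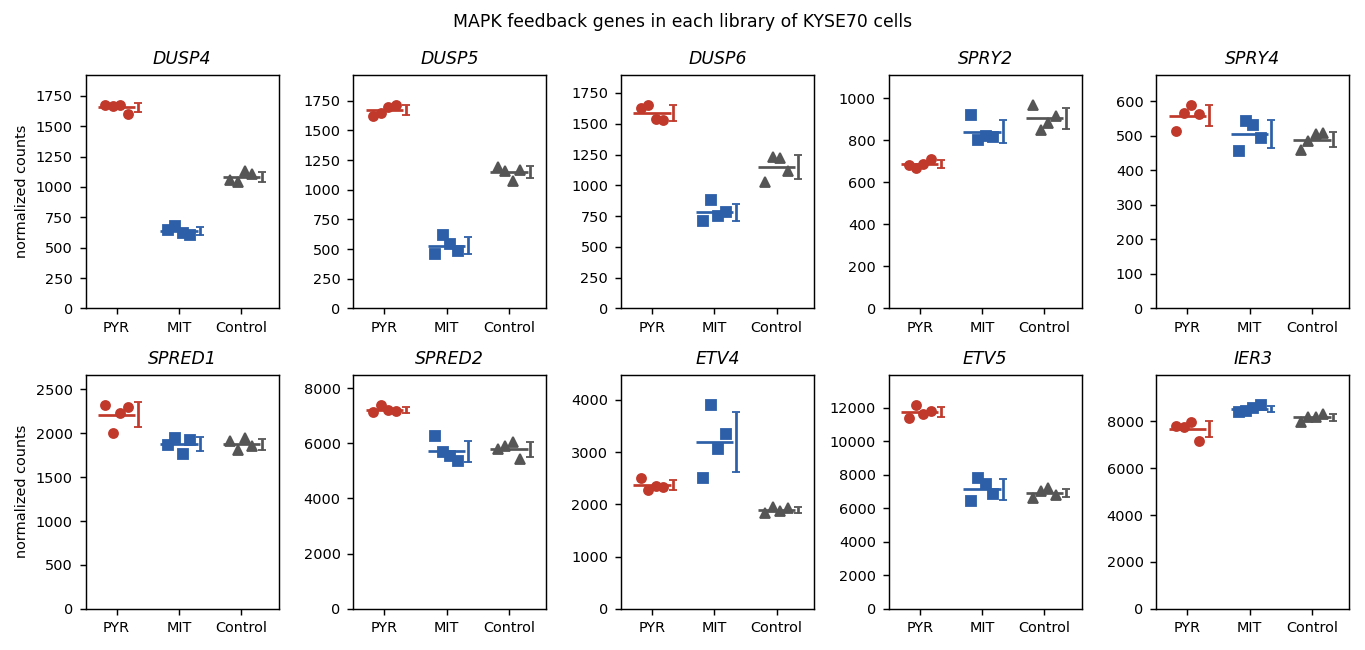
Normalized counts of the 10 MAPK feedback genes in each library, 1 panel a gene, with PYR, MIT and Control from left to right on the horizontal axis. Points are libraries, horizontal lines are group means and bars show the SD (n = 4); DUSP4, DUSP5 and DUSP6 show 3 separate bands, with PYR on top and MIT at the bottom.

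DUSP4, DUSP5 and DUSP6 encode dual-specificity phosphatases that remove phosphate from MAP kinases. DUSP4 and DUSP5 act in the nucleus and DUSP6 in the cytoplasm, and DUSP5 and DUSP6 are selective for ERK. DUSP4 (chromosome 8, 29333064 to 29350668 on GRCh38, minus strand) had 1674, 1669, 1673 and 1602 normalized counts in PYR libraries, 649, 682, 621 and 603 in MIT libraries and 1055, 1042, 1127 and 1104 in Control libraries. Every PYR library stood above every Control library and every MIT library below. The change was 1.53-fold for PYR against Control (log2 0.61, SE 0.0549, adjusted p = 6.67e-09), which exceeded in size that of 81.6% of tested genes. MIT was 1.69-fold lower than Control (log2 -0.76, adjusted p = 7.52e-11).

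DUSP5 (chromosome 10, 110497838 to 110511544, plus strand) had 1624, 1646, 1697 and 1713 normalized counts in PYR libraries, 459.6, 622, 539 and 487 in MIT libraries and 1194, 1160.1, 1076 and 1162 in Control libraries. The 3 groups again did not overlap. PYR exceeded Control by 0.54 on the log2 scale (SE 0.0734, adjusted p = 2.35e-06). MIT was 2.19-fold lower than Control (log2 -1.13, adjusted p = 1.40e-11), the largest change of the 10 genes against untreated cells under either drug. MIT replicates varied more than the others, with an SD of 71.5 around a mean of 527, against 41.8 around 1669.9 in PYR and 50.6 around 1148 in Control.

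DUSP6 (chromosome 12, 89347232 to 89353271, minus strand) is the phosphatase most often used as a readout of ERK signaling. It had 1631, 1652, 1541 and 1529 normalized counts in PYR libraries, 712, 877, 751 and 783 in MIT libraries and 1026, 1229, 1221 and 1117 in Control libraries. The groups kept the order of the other phosphatases, with no overlap. PYR was 1.39-fold higher than Control (log2 0.47, SE 0.0683, adjusted p = 5.63e-06) and MIT was 1.47-fold lower (log2 -0.56, adjusted p = 2.87e-07). An antisense gene, AC024909.2, overlaps 40.5% of the DUSP6 exons, and the strand setting of the counting is not given in the sources used here. That gene had 1.02 to 8.76 normalized counts in PYR, 4.13 to 6.68 in MIT and 5.29 to 21.1 in Control.

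The drugs compared directly put the phosphatases furthest apart among the 10 genes. MIT was lower than PYR by 1.37 on the log2 scale for DUSP4 (adjusted p = 1.56e-15), by 1.67 for DUSP5 (adjusted p = 7.67e-15) and by 1.03 for DUSP6 (adjusted p = 9.38e-12). In folds these were 2.59, 3.19 and 2.04. Between the phosphatases the proportions also shifted. The log2 ratio of DUSP6 to DUSP5 counts was 0.48 to 0.69 in MIT, -0.16 to 0.0063 in PYR and -0.22 to 0.18 in Control. That of DUSP5 to DUSP4 was -0.50 to -0.13 in MIT, -0.04 to 0.10 in PYR and -0.07 to 0.18 in Control, and that of DUSP6 to DUSP4 was 0.13 to 0.38 in MIT, -0.12 to -0.02 in PYR and -0.04 to 0.24 in Control. Against Control, MIT libraries therefore stood apart in both ratios with DUSP5, which was relatively low, while DUSP6 to DUSP4 overlapped.

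SPRY2 and SPRY4 encode Sprouty proteins, which are phosphorylated on receptor activation and restrain the path to RAS and RAF. SPRY2 (chromosome 13, 80335976 to 80340951, minus strand) had 683, 668, 687 and 713 normalized counts in PYR libraries, 920.3, 803, 819 and 816 in MIT libraries and 967, 849.6, 883 and 917 in Control libraries. PYR libraries lay below all others, and MIT and Control libraries overlapped. PYR was 1.31-fold lower than Control (log2 -0.39, SE 0.0629, adjusted p = 1.89e-05), and MIT was higher than PYR by 0.29 (adjusted p = 3.23e-04). The difference of MIT from Control, -0.11 with a 95% interval of -0.23 to 0.02, missed the threshold (adjusted p = 0.134). It was called with libraries rescaled to the same total (adjusted p = 0.00786), with upper-quartile rescaling (0.0362) and without MIT replicate 1 (0.0359), whose 920.3 was the highest MIT value.

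SPRY4 (chromosome 5, 142310427 to 142326455, minus strand) had 515, 567, 589.5 and 563 normalized counts in PYR libraries, 455, 543, 533 and 493 in MIT libraries and 459, 486, 506 and 507 in Control libraries. PYR libraries lay just above Control libraries, and MIT libraries spanned the Control range and reached into the lower part of the PYR range. PYR was higher than Control by 0.19 on the log2 scale (SE 0.0762, adjusted p = 0.0416). This call was lost without Control replicate 1 or 2 or PYR replicate 2, 3 or 4, with adjusted p between 0.0756 and 0.117, and it was also lost with no filter (0.0527) and with libraries rescaled to the same total (0.139). For MIT against Control the difference was 0.05 with a 95% interval of -0.10 to 0.20 (adjusted p = 0.606). Within single libraries, the log2 ratio of SPRY4 to SPRY2 was -0.41 to -0.22 in PYR, -1.01 to -0.57 in MIT and -1.07 to -0.81 in Control, so SPRY4 made up more of the pair in every PYR library than in any other. A ratio within a library does not depend on how libraries are scaled.

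SPRED1 and SPRED2 encode relatives of the Sproutys; SPRED1 brings the RAS inactivator neurofibromin to the membrane. SPRED1 (chromosome 15, 38252326 to 38357249, plus strand) had 2319, 2003, 2232 and 2302 normalized counts in PYR libraries, 1869, 1942, 1765 and 1929 in MIT libraries and 1908, 1805, 1943 and 1849.9 in Control libraries. All PYR libraries lay above the rest, while MIT and Control had means of 1877 each with SDs of 80.7 and 61.4. PYR exceeded Control by 0.24 on the log2 scale (SE 0.0514, adjusted p = 5.42e-04). The difference of MIT from Control was -0.00052, with a 95% interval of -0.10 to 0.10 (adjusted p = 0.994).

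SPRED2 (chromosome 2, 65310851 to 65432637, minus strand) had 7130.0, 7372, 7217 and 7161 normalized counts in PYR libraries, 6245, 5691, 5552 and 5354 in MIT libraries and 5776, 5884, 6033 and 5420.5 in Control libraries. It repeated the pattern of SPRED1, with PYR on top and the other groups mixed. PYR was higher than Control by 0.32 on the log2 scale (SE 0.0442, adjusted p = 2.70e-06). For MIT against Control the log2 difference was -0.02, with a 95% interval of -0.11 to 0.07 (adjusted p = 0.726), and it passed the threshold only with libraries rescaled to the same total (adjusted p = 0.0256). MIT was lower than PYR by 0.24 for SPRED1 (adjusted p = 2.76e-04) and by 0.34 for SPRED2 (adjusted p = 4.44e-07). The log2 ratio of SPRED1 to SPRED2 overlapped between all 3 groups.

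**Figure D2:**
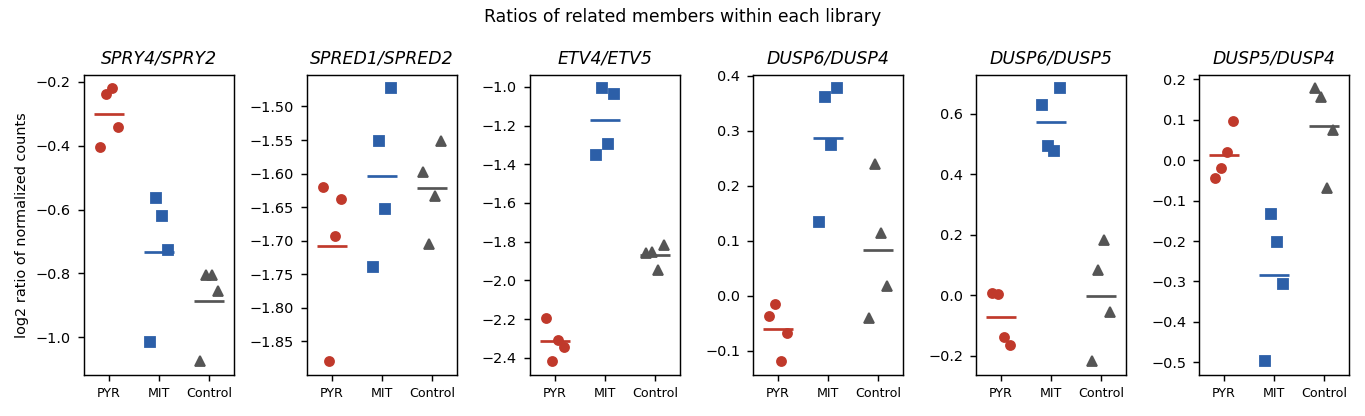
Log2 ratios of normalized counts of related genes within each library, 1 panel a ratio, with PYR, MIT and Control from left to right. Points are libraries and lines are group means; the SPRY4 to SPRY2 ratio is highest in PYR (-0.41 to -0.22), and the ETV4 to ETV5 ratio separates all 3 groups, highest in MIT (-1.35 to -1.01). The vertical axes differ between panels and do not start at 0.

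ETV4 and ETV5 encode closely related ETS transcription factors that act downstream of ERK and FGF signaling. ETV4 (chromosome 17, 43527844 to 43579620, minus strand) had 2497, 2276, 2352 and 2325 normalized counts in PYR libraries, 2509.8, 3896, 3050.4 and 3339.7 in MIT libraries and 1829.7, 1956, 1873 and 1924 in Control libraries. Every PYR and every MIT library stood above every Control library. The increase was 0.32 on the log2 scale in PYR (SE 0.0823, adjusted p = 0.00262) and 0.74, or 1.67-fold, in MIT (SE 0.0823, adjusted p = 7.07e-08). MIT replicates were the most spread of any gene and group here, with a coefficient of variation of 18.1%, and MIT replicate 1 lay barely above the highest PYR library. MIT was called higher than PYR, by 0.42 (adjusted p = 9.28e-05). The spread behind these p-values is pooled over the 3 groups, so they do not reflect the wider spread in MIT.

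ETV5 (chromosome 3, 186046308 to 186110318, minus strand) had 11418, 12155, 11625 and 11823 normalized counts in PYR libraries, 6414, 7831, 7475 and 6858 in MIT libraries and 6644, 7066, 7212 and 6771 in Control libraries. PYR libraries stood far above the others, which overlapped. The 1.70-fold difference of PYR from Control (log2 0.76, SE 0.0491, adjusted p = 4.97e-11) was the largest rise of the 10 genes under pyrimethamine and exceeded in size the change of 87.5% of tested genes. For MIT the difference was 0.04 with a 95% interval of -0.05 to 0.14 (adjusted p = 0.459), and MIT was lower than PYR by 0.72 (adjusted p = 1.37e-11). The ETS pair therefore changed unequally, with a log2 ratio of ETV4 to ETV5 of -2.42 to -2.19 in PYR, -1.35 to -1.01 in MIT and -1.95 to -1.82 in Control, and no overlap between groups. Other genes overlap 1.89% of the ETV4 exons (DHX8) and 2.83% of the ETV5 exons (DGKG).

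IER3 encodes a short-lived early response protein that takes part in cell survival and is itself a substrate of ERK. Located on chromosome 6 (30743199 to 30744554, minus strand), it had 7809, 7745, 7980.2 and 7164 normalized counts in PYR libraries, 8400.2, 8460.0, 8555 and 8686 in MIT libraries and 7988, 8182, 8202 and 8329.6 in Control libraries. The 3 groups did not overlap, but the gaps were narrow. PYR was lower than Control by -0.09 on the log2 scale (SE 0.0363, adjusted p = 0.0375), and the 95% interval reached from -0.16 to -0.02. The call was lost without Control replicate 2, 3 or 4 or PYR replicate 2 or 4 (adjusted p 0.0525 to 0.173), with no filter (0.0753), with upper-quartile rescaling (0.0691) and with no variance trend (0.0564). MIT differed from Control by 0.06 (95% interval -0.01 to 0.13, adjusted p = 0.144) and from PYR by 0.15 (adjusted p = 6.96e-04). IER3-AS1, an antisense gene with 5.48 to 25.6 normalized counts in PYR, 12.4 to 20.7 in MIT and 7.27 to 19.6 in Control, overlaps 26.5% of the IER3 exons.

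**Figure D3:**
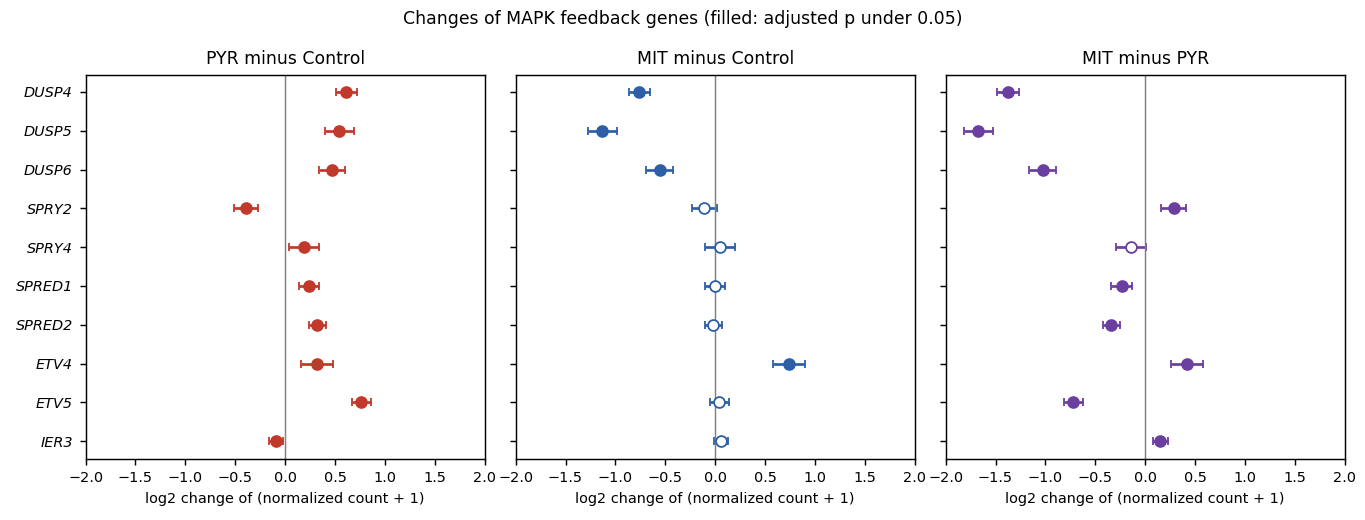
Log2 change of each of the 10 genes for PYR minus Control, MIT minus Control and MIT minus PYR, 1 panel a comparison. Points are fitted changes of log2(normalized count + 1), bars are 95% intervals, and filled points have a limma adjusted p under 0.05; pyrimethamine gave 8 rises and 2 falls, and mitoxantrone gave 1 rise and 3 falls.

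Levels of different genes can be ordered only per length of exon. That length includes exon shared with antisense genes, 40.5% for DUSP6 and 26.5% for IER3. As the strand setting is not given, reads may be missing there, and the effect on the order was not tested. In PYR libraries the order ran IER3, ETV5, SPRED2, ETV4, DUSP5, DUSP6, SPRED1, DUSP4, SPRY2, SPRY4. Mean levels there ran from 5659.6 normalized counts per kb for IER3 to 85.1 for SPRY4. ETV4 and DUSP5 overlapped, as did DUSP4 and SPRY2. In MIT libraries the order was IER3, ETV5, SPRED2, ETV4, SPRY2, SPRED1, DUSP5, DUSP6, DUSP4, SPRY4, from 6287 to 77.1 per kb, with overlaps from ETV5 to SPRED2, from SPRED2 to ETV4, from SPRED1 to DUSP5 and from DUSP5 to DUSP6. In Control libraries it was IER3, ETV5, SPRED2, ETV4, DUSP5, SPRY2, DUSP6, SPRED1, DUSP4, SPRY4, from 6029 to 74.6 per kb, where ETV5 and SPRED2 overlapped and so did DUSP6 and SPRED1. DUSP5 stood at rank 5 with 639 per kb in PYR (SD 16.0), at rank 7 with 202 in MIT (SD 27.3) and at rank 5 with 439 in Control (SD 19.3). IER3, the highest in all groups, and SPRY4, the lowest, kept their places.

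**Figure D4:**
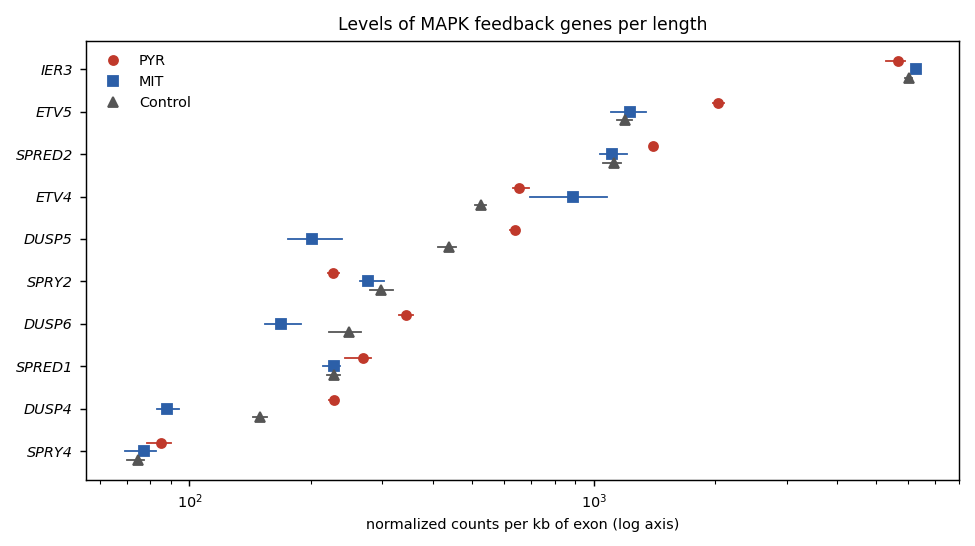
Normalized counts per kb of exon, on a log axis, for the 10 genes ordered by their level in Control. Symbols are means of PYR, MIT and Control (n = 4), and bars run from the lowest to the highest library; IER3 is highest in every group (5659.6 in PYR, 6287 in MIT, 6029 in Control) and SPRY4 lowest.

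How alike the genes' courses were was measured by the root mean square difference of their log2 values over the 12 libraries, each taken relative to its Control mean. SPRED1 and SPRED2 were the closest pair among the 10 at 0.103, followed by SPRY4 and SPRED1 at 0.116, and the nearest pair of phosphatases was DUSP4 and DUSP6 at 0.167. The Sprouty pair was further apart at 0.370, and the ETS pair at 0.488. Among 12058 other protein-coding genes, the nearest to DUSP4 was CYB561A3 at 0.0508, to DUSP5 CABLES1 at 0.109 and to DUSP6 NT5C2 at 0.0651. TXNRD3 was nearest to SPRY2 at 0.0637, RBMS1 to SPRY4 at 0.0558 and KITLG to SPRED2 at 0.0415. For ETV4 it was COMMD10, with log2 changes of 0.42 in PYR and 0.66 in MIT. PRKAB2 was nearest to ETV5 at 0.0768 and SPINDOC to IER3 at 0.0261. A gene that moved little, such as IER3, lies close to many others by this measure.

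Counts in the related lists below are set beside the shares of all tested genes. Against Control these shares were 26.4% higher and 26.9% lower in PYR, and 33.5% higher and 35.8% lower in MIT. The other MAP kinase phosphatases did not move as one. Of 7 tested, 2 were higher and 2 lower in PYR than in Control, and 2 were higher and 5 lower in MIT. The median log2 changes were -0.11 in PYR and -0.34 in MIT, and after quantile normalization 2 were higher and 3 lower in MIT. In PYR 1 rather than 2 was higher without Control replicate 1 or 3 or PYR replicate 2 or 3, and 1 was lower without Control replicate 1, 2 or 3 or PYR replicate 1. DUSP1, the early-response phosphatase of stress kinases and ERK, averaged 648 normalized counts in PYR (SD 70.9), 301 in MIT (SD 39.0) and 381 in Control (SD 55.1), a rise of 0.77 on the log2 scale in PYR and a fall of -0.34 in MIT. DUSP10, which acts on JNK and p38, averaged 181 in PYR, 54.2 in MIT and 122 in Control, with log2 changes of 0.57 and -1.25. The pyrimethamine call of DUSP10 was lost with no filter, with no variance trend and without Control replicate 1 or 3 or PYR replicate 2 or 3 (adjusted p 0.0505 to 0.0720). DUSP9, an ERK phosphatase, was lower under both drugs, at 2481 in PYR, 2901 in MIT and 3584 in Control (log2 -0.53 and -0.31).

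Of the other Sprouty and SPRED genes, SPRY3 averaged 157 normalized counts in PYR (SD 24.8), 12.6 in MIT (SD 2.25) and 72.4 in Control (SD 13.7), with log2 changes of 1.11 in PYR and -2.43 in MIT. SPRED3 averaged 27.7 in PYR, 63.4 in MIT and 27.4 in Control and was called higher in MIT only (log2 1.20). SPRY1 was not called under either drug. The median of the 3 genes was 0.13 in PYR, and 0.23 without PYR replicate 3. In MIT it was -0.02 and had no steady sign, at -0.12 with the same total, -0.07 with upper-quartile rescaling and 0.21 after quantile normalization. It was 0.02 without Control replicate 2, 0.03 without MIT replicate 3, -0.05 without Control replicate 4, -0.04 without MIT replicate 1 and -0.06 without MIT replicate 2. Of the other ETS factors 6 of 7 were tested, with 2 higher, 1 lower and 3 not called in PYR and 4 higher, 1 lower and 1 not called in MIT. Their median log2 change was 0.09 in PYR and 0.13 in MIT, and with libraries rescaled to the same total 2 were higher and 2 lower in MIT. ETS1, an ERK-regulated activator, averaged 5096 in PYR, 2316 in MIT and 3797 in Control (log2 0.42 and -0.71), and the ETS repressor ERF averaged 3540.3 in PYR, 5957 in MIT and 4037 in Control (log2 -0.19 and 0.56).

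Among 9 further feedback and brake genes of RAS and ERK signaling, 5 were higher, 3 lower and 1 not called in PYR, and 5 were higher and 4 lower in MIT. Their median was 0.28 in PYR and 0.08 in MIT, the second turning to -0.02 with the same total. ERRFI1, which binds and inhibits the EGF receptor, averaged 4857 normalized counts in PYR (SD 213), 2094 in MIT (SD 147) and 2561 in Control (SD 83.0), a log2 rise of 0.92 in PYR. LRIG1, which promotes turnover of EGF receptors, averaged 1285 in PYR, 3066 in MIT and 1543 in Control (log2 -0.27 and 0.99). The pseudokinase TRIB1 had log2 changes of 0.64 in PYR and -0.55 in MIT. Of 17 genes of the cascade from adaptors to ERK, 7 were higher and 3 lower in PYR and 8 were higher and 5 lower in MIT, with medians of -0.000038 in PYR and 0.01 in MIT. Neither median kept its sign over the other scalings or with single libraries left out, and with the same total 5 were higher and 7 lower in MIT. MAPK3, which encodes ERK1, averaged 1108 in PYR (SD 40.4), 1889 in MIT (SD 45.4) and 1680.0 in Control (SD 76.3), a log2 fall of -0.60 in PYR. KSR1, a scaffold for RAF, MEK and ERK, had log2 changes of 0.41 in PYR and -0.53 in MIT.

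Upstream, 6 of 9 EGF family receptors and ligands were tested, with 4 higher and 1 lower in PYR and 1 higher and 4 lower in MIT. The median log2 change was 0.56 in PYR and -0.14 in MIT. The ligand HBEGF averaged 659 normalized counts in PYR (SD 35.5), 90.9 in MIT (SD 9.85) and 291 in Control (SD 28.6), with log2 changes of 1.18 and -1.67. AREG, another EGF receptor ligand, rose by 1.08 on the log2 scale in PYR. EGFR itself averaged 22908 in PYR (SD 322), 42136 in MIT (SD 5237) and 37628 in Control (SD 2574), a log2 fall of -0.71 in PYR. Its log2 change of 0.16 in MIT was lost in 10 alternatives, among them those without Control replicate 4 or MIT replicate 1 or 2, and was -0.0597 after quantile normalization. Of 5 genes of the FGF receptors and their adaptor, 1 was higher and 3 lower under each drug, with medians of -0.29 in PYR and -0.50 in MIT. The gene higher in PYR, the adaptor FRS2, was not called without PYR replicate 3 (limma adjusted p = 0.0516) or with libraries rescaled to the same total (0.115). FGFR2, the FGF receptor that differed most between the drugs, averaged 3287 in PYR, 10719.8 in MIT and 5240.2 in Control (log2 -0.67 and 1.03).

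Of 15 early and delayed output genes of ERK other than the 10, 7 were higher and 2 lower in PYR and 7 were higher and 5 lower in MIT. The median was 0.14 in PYR and 0.08 in MIT, and with the same total it was -0.02 in MIT, with 5 higher and 6 lower. The MIT median was 0.01 without MIT replicate 1 and 0.12 without MIT replicate 3, and 4 were lower in PYR in the fit without MIT replicate 4. FOSB, an AP-1 subunit, averaged 1477 normalized counts in PYR (SD 42.6), 184 in MIT (SD 31.5) and 909 in Control (SD 36.0), with log2 changes of 0.70 and -2.31. EGR1, an immediate early zinc finger factor, went against it, at 1815 in PYR (SD 96.4), 4703 in MIT (SD 110.4) and 2847 in Control (SD 85.7), with log2 changes of -0.65 and 0.72. MYC and PHLDA1 rose under both drugs, MYC by 0.41 on the log2 scale in PYR and 0.21 in MIT, PHLDA1 by 0.14 and 0.57. These output genes went in both directions under each drug, as did the tested genes at large.

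**Figure D5:**
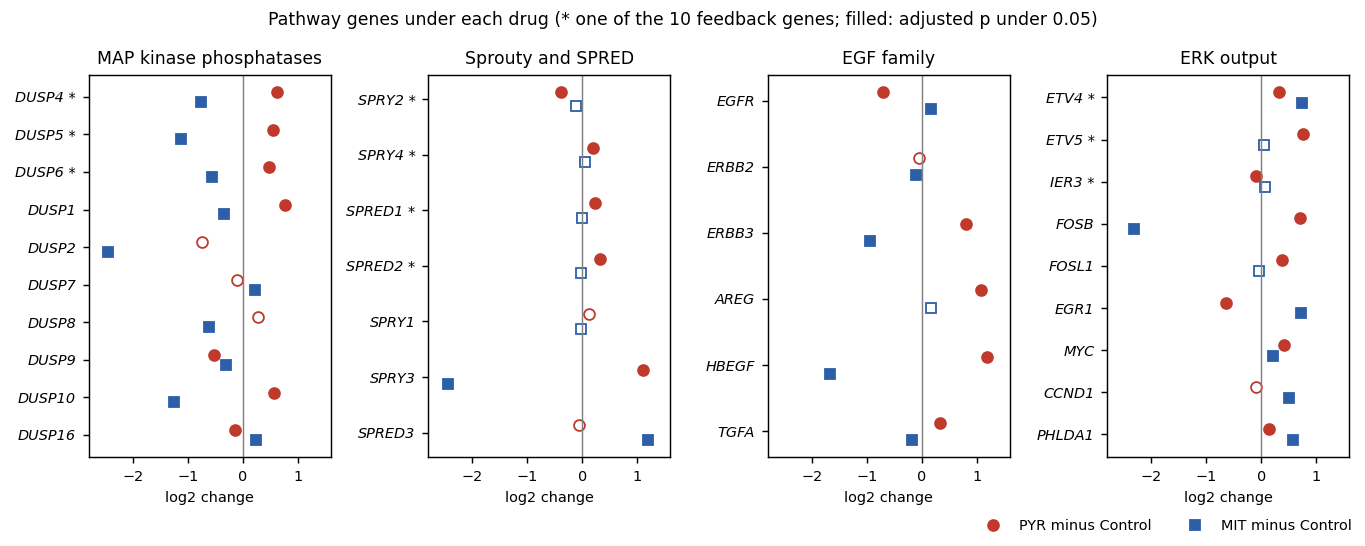
Log2 changes of the 10 MAPK feedback genes (marked *) and of related pathway genes, in 4 panels by gene group. Circles are PYR minus Control, squares are MIT minus Control, and filled symbols have a limma adjusted p under 0.05; SPRY3, HBEGF and FOSB are higher in PYR and lower in MIT, and EGR1 is the reverse.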

How the data were processed

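Total RNA of KYSE70 cells was sequenced in 12 libraries, 4 a group. The submitters' processing notes name the tools STAR 2.6.90c, featureCounts 1.5.1, cutadapt 1.12 and FastQC 0.11.5 and list the builds hg38 and mm10. Neither the strand setting nor the source of the scaling factors is given in the sources used here. For each gene and library the authors deposited a normalized signal, the read count over that library's factor. Multiplied back, 100.0% of the values were whole reads within 0.01 read, and depths of 47.5 M to 94.5 M are sums of those reads.

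A gene was tested where 4 or more libraries had a value of 10 or more, which left 16950. The model was limma 3.58.1 (R 4.3.3) on log2(value + 1), with 3 groups over 12 libraries and no other term, moderated by eBayes with a trend. The spread of each gene was pooled over the 3 groups, also where a group varied more than the others. The two-sided p-values were adjusted by Benjamini-Hochberg over all tested genes in each of 3 comparisons, with 0.05 as the threshold. The median standard error for PYR against Control was 0.0719. The 95% intervals use a normal quantile of the SE, not the t distribution behind the p-values, and are therefore slightly too narrow. Changes of genes with low values are understated by the pseudocount of 1. Count tests on the recovered reads were alternatives. edgeR 4.0.16 called 4506 genes higher and 4780 lower in PYR against Control, 5805 and 5960 in MIT against Control, and 6415 and 6528 in MIT against PYR. DESeq2 1.42.0 called 4712 and 4606, 5791 and 6043, and 6260 and 6700 in the same comparisons. Only the limma fit was tested on simulated counts, which had the same dispersion for every gene.

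The members, the related lists and the tests were chosen with earlier results of these data known. All members are named. From each related list, up to 2 called genes with the largest rise and up to 2 with the largest fall in each comparison could be named, if their mean reached 50 in the higher group, and not all of them are described. SPRY1 was chosen after its values were seen. For likeness, the 3 nearest protein-coding genes of each member were found and the nearest is given, except for SPRED1, where it is not reported here. Coordinates and exon lengths are from GENCODE release 29 on GRCh38 (58611 identifiers matched, 273 did not), and promoters are from RefSeq (GRCh38.p14). Alternatives were pseudocounts of 0.5 and 10, 2 other filters, 3 other scalings, other variance settings, a fit of only the 8 libraries compared, a replicate block and each library left out. Other tools were Python 3.11.15, pandas 2.3.3, numpy 2.4.6 and matplotlib 3.10.9.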

Additional observations from a re-analysis of the deposited data

Results flagged for a closer look

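In PYR replicate 4, DUSP4 had 1602 normalized counts while the other 3 PYR libraries had 1669 to 1674, a gap of 0.933 of the group's range, above Dixon's 95% critical value for 4 samples. In MIT replicate 1, SPRY2 had 920.3 normalized counts while the other 3 MIT libraries had 803 to 819, a gap of 0.867 of the range. Chance flags about 1 in 20 groups, and 30 groups of 4 libraries were examined, so these values are given without further comment.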

How the results depend on the processing

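Each of the 30 results on the 10 genes was computed under 25 alternatives. Of these values, 712 kept direction and side of the threshold. All calls on DUSP4, DUSP5, DUSP6, ETV4 and ETV5, on SPRY2, SPRED1 and SPRED2 in PYR against Control and in MIT against PYR, and on IER3 in MIT against PYR were kept. The count of the 10 genes lower in PYR than in Control was 1, not 2, with no filter, with upper-quartile rescaling and with no variance trend, and it was 1 to 2 with single libraries left out. The count lower in MIT than in Control was 5, not 3, with libraries rescaled to the same total. That rescaling moved the median log2 change of all tested genes in MIT against Control to -0.11, from -0.0080, and gave 4420 genes higher and 7210 lower, against 5681 and 6064. SPRY4 was called lower in MIT than in PYR with the same total (adjusted p = 0.0264), with upper-quartile rescaling (0.0208) and without PYR replicate 1 (0.0495).

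Signs turned for differences of MIT from Control that had not passed the threshold, and for EGFR. With the same total IER3 was at -0.0406, SPRY4 at -0.0552 and ETV5 at -0.0591. With upper-quartile rescaling SPRY4 was at -0.0010 and ETV5 at -0.0049. After quantile normalization IER3 was at -0.0185, ETV5 at -0.0284 and EGFR at -0.0597. SPRED1 was at 0.0068 in edgeR and 0.0034 in DESeq2. With single libraries left out, SPRED1 ranged from -0.0190 to 0.0285, SPRED2 from -0.0622 to 0.0118 and ETV5 from -0.0036 to 0.0923. The cause of these shifts was not tested. Calls of DUSP16 and FRS2 in PYR and of EGFR and DUSP8 in MIT were each lost under some alternatives.

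No pairing of the samples by replicate number was seen in the values, and the labels do not say whether same-numbered samples were handled together. Deviations from the group means of same-numbered libraries correlated at -0.01 to 0.03, other pairs at -0.07 to 0.04, and not every library correlated best with its own number. With the replicate number as a block, 4492 genes were higher and 4565 lower in PYR than in Control, and 5685 and 6064 in MIT, and no call on the 10 genes changed.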
